A study of Mus musculus with 6 samples.

Results

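RNA levels of 9 genes of cyclic GMP (cGMP) signalling were followed in CD31-selected cells from brains of mouse pups. The genes were the natriuretic peptide receptors Npr1, Npr2 and Npr3, the ligand gene Nppc and the soluble guanylyl cyclase subunits Gucy1a1 and Gucy1b1. The kinase Prkg1 and the phosphodiesterases Pde5a and Pde2a completed the set. The 9 genes were taken from the deposited gene table by symbol in the GENCODE annotation. All 9 were found among its 55450 genes, and all 9 were among the 19549 genes with enough counts to test. The libraries came from CD31-positive cells, collected on magnetic beads from brains at postnatal day 7, and were made from poly(A) RNA. Control mice (3 libraries) were Rbpjflox/WT and mutant mice (3 libraries) were Rbpjflox/flox. Control mice also carried the driver Cdh5(PAC)-CreERT2, as mutant mice did: a recombinase under an endothelial promoter that tamoxifen switches on. Every pup was given tamoxifen, 100 µg by stomach on postnatal day 1 and again on postnatal day 2. The mice were of both sexes on a mixed FVB/N and C57BL/6 background. One label field gives the time as P0 for every library, whereas the age, description and harvest fields give postnatal day 7, which was used. RNA was pooled over animals, given as more than 20 biological replicates in the extraction text and as 13 to 15 in the design text. The labels do not say if each library was made from its own pool, so p-values reflect only how much these libraries vary, and that variation may be technical.

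Cyclic GMP is made by guanylyl cyclases of 2 kinds, membrane-bound and soluble, and the natriuretic peptide receptors are only some of the membrane-bound ones. Membrane receptors for natriuretic peptides (Npr1 for the atrial and B-type peptides, Npr2 for the C-type peptide made by Nppc) carry a cyclase domain inside the cell, and the soluble cyclase, a dimer such as that of Gucy1a1 and Gucy1b1, is switched on by nitric oxide. Npr3 lacks the cyclase domain and is known as the clearance receptor, since it binds natriuretic peptides and takes them into the cell. Prkg1 is the main kinase through which cGMP relaxes vascular smooth muscle, Pde5a degrades cGMP, and Pde2a degrades cGMP and cAMP and is stimulated by cGMP. Rbpj, the targeted gene, encodes the transcription factor of the Notch pathway.

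Promoter sequences are shown for the 4 genes that fell and for Gucy1a1, which held the most matches to the RBPJ core motif. Each window runs from 250 bases before to 50 bases after a RefSeq transcript start in GRCm38.p6 and is printed 5′ to 3′ on the strand of the gene. Capitals mark the core TGGGAA or, on the other strand, TTCCCA. Prkg1 and Gucy1a1 each have 2 windows, and the one with a match is shown.
Npr3, chr15:11907322-11907621, minus strand: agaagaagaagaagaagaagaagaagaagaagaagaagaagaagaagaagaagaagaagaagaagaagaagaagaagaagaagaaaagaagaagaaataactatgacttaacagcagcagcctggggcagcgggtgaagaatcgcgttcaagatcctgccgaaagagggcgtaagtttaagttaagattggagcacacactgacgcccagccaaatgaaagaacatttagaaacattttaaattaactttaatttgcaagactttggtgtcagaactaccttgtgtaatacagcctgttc
Npr1, chr3:90465817-90466116, minus strand: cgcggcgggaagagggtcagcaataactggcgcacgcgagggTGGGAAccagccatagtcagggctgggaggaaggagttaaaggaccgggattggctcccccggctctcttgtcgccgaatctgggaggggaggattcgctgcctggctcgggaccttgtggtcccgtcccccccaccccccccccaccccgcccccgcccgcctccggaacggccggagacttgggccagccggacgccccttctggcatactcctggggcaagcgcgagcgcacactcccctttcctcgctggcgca
Prkg1, chr19:31764984-31765283, minus strand: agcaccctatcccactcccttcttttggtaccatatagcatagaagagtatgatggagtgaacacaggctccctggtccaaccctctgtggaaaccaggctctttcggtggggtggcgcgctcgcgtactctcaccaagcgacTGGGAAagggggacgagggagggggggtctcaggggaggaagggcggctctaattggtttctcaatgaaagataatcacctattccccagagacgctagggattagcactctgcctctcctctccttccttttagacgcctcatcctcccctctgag
Pde5a, chr3:122728908-122729207, plus strand: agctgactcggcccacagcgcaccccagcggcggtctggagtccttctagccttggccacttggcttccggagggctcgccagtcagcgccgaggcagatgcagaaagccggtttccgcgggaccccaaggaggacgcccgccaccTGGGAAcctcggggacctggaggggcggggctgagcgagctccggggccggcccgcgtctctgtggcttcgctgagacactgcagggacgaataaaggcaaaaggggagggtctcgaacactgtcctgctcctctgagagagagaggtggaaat
Gucy1a1, chr3:82145024-82145323, minus strand: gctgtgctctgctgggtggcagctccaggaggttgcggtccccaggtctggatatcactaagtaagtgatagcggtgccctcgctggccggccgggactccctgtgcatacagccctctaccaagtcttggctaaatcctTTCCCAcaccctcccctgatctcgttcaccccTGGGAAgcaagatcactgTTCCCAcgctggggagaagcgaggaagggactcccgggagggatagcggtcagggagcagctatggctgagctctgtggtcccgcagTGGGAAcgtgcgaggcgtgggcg
The core was found in at least 1 window of 6 of the 9 genes: Npr1, Prkg1, Pde5a, Pde2a, Gucy1a1 and Gucy1b1. Pde2a has 5 windows, with a match in 1 of them. By window, 6 of the 15 windows of the 9 genes held the core, against 25.6% of all RefSeq windows of this length. By gene symbol, 28.3% had a window that did, and genes with more windows have more chances of a match. Npr3, which had the lowest log2 fold change of the 9, had no match in its only window, and this window instead opens with a run of GAA repeats and has a GC content of 39.0%, against a median of 52.7% over all windows. Gucy1a1 had 4 matches and was not called changed. A match describes the letters in the window and is not evidence of binding.

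Library totals ran from 75744913 to 82092461 counts. About 4 counts stand for 1 read pair, since counts of 4 were found for 1118 to 1190 genes in each library and counts of 3 for 316 to 365. Values are given as CPM, TMM-scaled counts relative to library size, and a gene is called changed when its adjusted p was under 0.05 in the edgeR quasi-likelihood test over all genes tested. Rbpj was at 54.3, 54.3 and 53.8 CPM in control libraries and at 47.9, 46.8 and 45.2 CPM in mutant libraries. It was lower in the mutant group by a log2 fold change of -0.21 ± 0.042 (SE, adjusted p = 0.0129, edgeR). The count also covers exons outside any floxed region and RNA of cells that are not endothelial. Control mice (Rbpjflox/WT) also carried a floxed copy of Rbpj and the driver and were given tamoxifen, so they are not a reference with intact Rbpj by design. Control and mutant libraries separated on the first principal component (40.3% of the variance). The endothelial genes Pecam1, Cdh5 and Cldn5 were abundant in every library, with Pecam1 at 1098 to 1570 CPM and Cdh5 at 1335 to 1558 CPM. Rgs5, a pericyte gene, was at 2016 to 2267 CPM in the same libraries. In these bulk libraries fewer cells of a type and less RNA per cell cannot be told apart.

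Of the 9 genes, 4 were called lower in the mutant group (Npr3, Prkg1, Pde5a and Npr1), 1 was called higher (Pde2a) and 4 were not called. Among all genes tested 14.4% were called, 6.83% lower and 7.56% higher. The same 5 genes were those whose control and mutant libraries did not overlap, which was so for 34.1% of all genes tested. The median log2 fold change of the 9 genes was -0.33, against -0.01 over all genes tested. All 5 calls held under each of 15 alternative settings, which included leaving out each library in turn.

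**Figure D1:**
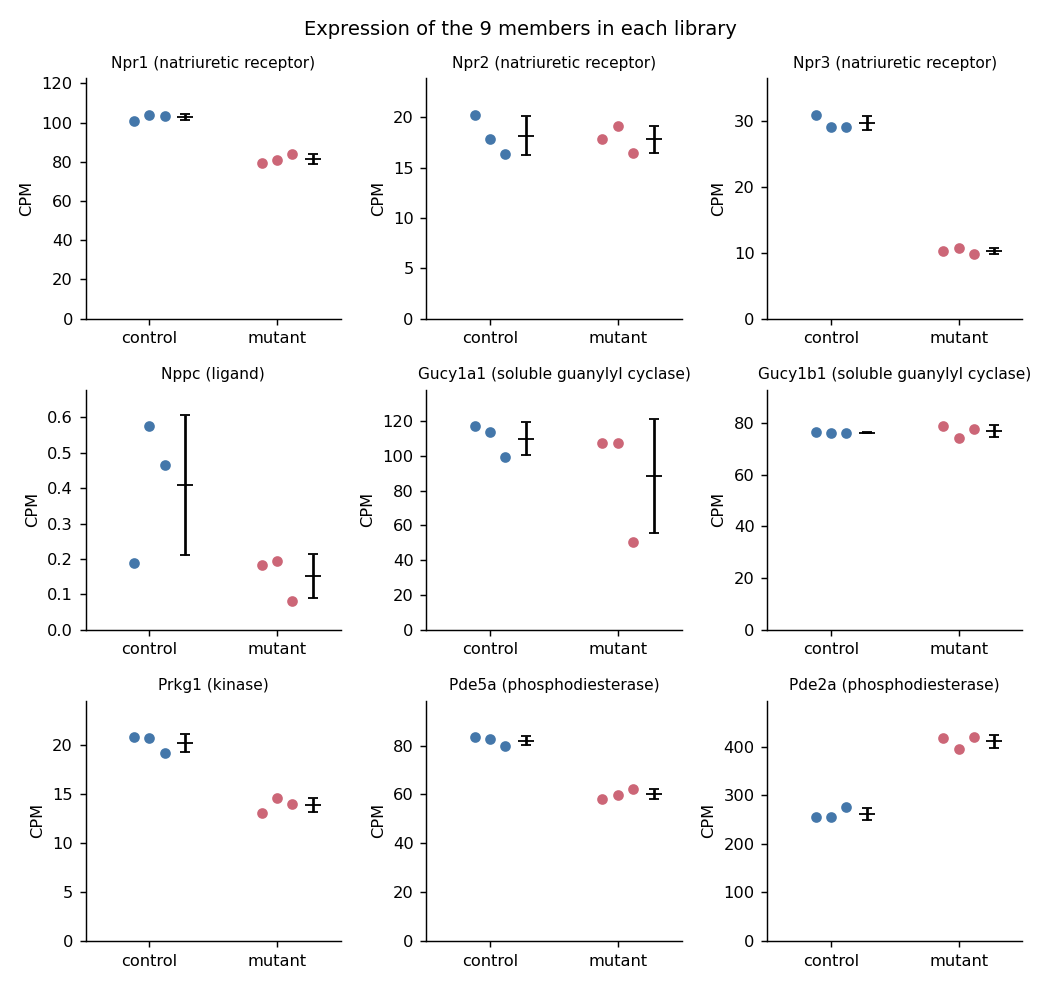
CPM of each of the 9 genes in each library, with the mean and SD of the 3 libraries of a group (crossbar and error bar). Control and mutant points do not overlap for Npr1, Npr3, Prkg1, Pde5a and Pde2a, and 1 mutant library of Gucy1a1 lies at 50.6 CPM, below the other libraries.

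Npr3 (ENSMUSG00000022206, chr15:11839896-11907287 on the minus strand in GRCm38) had the largest log2 fold change among the 9 genes. It was at 30.8, 29.0 and 29.1 CPM in control libraries and at 10.2, 10.6 and 9.72 CPM in mutant libraries. Every mutant library was below every control library. The mean fell from 29.6 ± 1.04 to 10.2 ± 0.462 CPM (SD, n = 3 libraries each), which is 2.91-fold lower, with a log2 fold change of -1.54 ± 0.067 (SE, adjusted p = 1.51e-05, edgeR). Its exons overlap those of the antisense gene Gm5144 over 321 bases.

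Npr1 (ENSMUSG00000027931, chr3:90450591-90465866, minus strand), the cyclase-bearing receptor for the atrial and B-type peptides, fell as well. Its values were 101.0, 103.9 and 103.2 CPM in control libraries and 79.3, 81.0 and 84.2 CPM in mutant libraries, with no overlap. The log2 fold change was -0.33 ± 0.038 (SE, adjusted p = 0.00106, edgeR), or 20.6% less. Npr1 overlaps the antisense gene Gm16048 over 559 exonic bases.

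Npr2 (ENSMUSG00000028469, chr4:43631935-43651244, plus strand), the receptor for the C-type peptide, did not pass the test. It was at 20.2, 17.9 and 16.4 CPM in control libraries and at 17.8, 19.2 and 16.5 CPM in mutant libraries. The groups overlapped, and the log2 fold change was -0.03 ± 0.098 (SE, adjusted p = 0.902, edgeR). Npr2 overlaps the antisense gene Gm12473 over 266 exonic bases.

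The make-up of the 3 receptor transcripts was compared within each library. Npr3 made up 11.4%, 10.8% and 11.0% of their summed counts per kilobase of exon in control libraries and 5.06%, 5.11% and 4.67% in mutant libraries. The shares did not overlap, and the mean was 6.12 percentage points lower, from 11.1% ± 0.333 to 4.95% ± 0.244 (SD, n = 3 each; exact two-sided permutation p = 0.1, the smallest that 3 against 3 libraries allow). Npr1 made up 75.3% ± 1.60 in control and 77.6% ± 1.58 in mutant libraries, and Npr2 13.7% ± 1.33 and 17.4% ± 1.34. Shares of 1 sum are tied to each other, so these do not show a rise in level. In CPM Npr1 fell and Npr2 was not called.

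**Figure D2:**
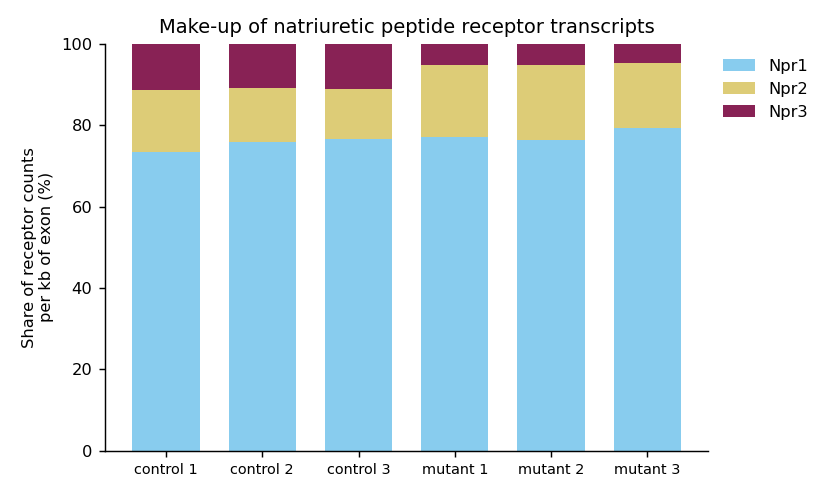
Share of Npr1, Npr2 and Npr3 in their summed counts per kilobase of exon, in percent, for each of the 6 libraries. Npr3 lies between 10.8% and 11.4% in control libraries and between 4.67% and 5.11% in mutant libraries.

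Nppc (ENSMUSG00000026241, chr1:86666291-86670571, minus strand), which encodes C-type natriuretic peptide, was near the limit of detection. Its counts were 15, 47 and 38 in control libraries and 15, 15 and 6 in mutant libraries, or 0.081 to 0.575 CPM over all 6. The groups overlapped, and the log2 fold change of -1.42 ± 0.60 (SE) had an adjusted p of 0.183 (edgeR). With about 4 counts to a read pair, no mutant library held more than a few read pairs. The genes of the other natriuretic peptides were lower still: Nppb and Ostn had no count in any library, and Nppa was at 0.0489 CPM or less.

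Gucy1b1 (ENSMUSG00000028005, chr3:82032006-82074689, minus strand), the beta subunit of the soluble cyclase, stayed within a narrow range. It was at 76.44, 75.98 and 76.22 CPM in control libraries and at 78.7, 74.3 and 77.4 CPM in mutant libraries. The mutant values spanned the control values, and the log2 fold change was 0.01 ± 0.037 (SE, adjusted p = 0.896, edgeR).

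Gucy1a1 (ENSMUSG00000033910, chr3:82092427-82145789, minus strand), the alpha subunit, lies 17.7 kb from Gucy1b1 on the same strand. It was at 117.0, 113.4 and 99.1 CPM in control libraries and at 107.0, 107.4 and 50.6 CPM in mutant libraries. Mutant library 3 stood alone below the other 5. The log2 fold change was -0.31 ± 0.33 (SE, adjusted p = 0.636, edgeR), and without mutant library 3 it was -0.03 (adjusted p = 0.861). Such a spread was uncommon: 356 of 11738 genes with a mean of at least 5 CPM (3.03%) differed by 2-fold or more between mutant libraries, and 399 (3.40%) did between control libraries. The log2 ratio of Gucy1a1 to Gucy1b1 counts per kilobase was -0.21, -0.25 and -0.45 in control libraries and -0.38, -0.30 and -1.44 in mutant libraries (difference of means -0.40, exact two-sided permutation p = 0.4). Without mutant library 3 the difference was -0.036, and without mutant library 2 it was -0.61.

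Prkg1 (ENSMUSG00000052920, chr19:30564489-31765033, minus strand), the cGMP-dependent kinase, fell. It was at 20.7, 20.7 and 19.1 CPM in control libraries and at 13.1, 14.6 and 13.9 CPM in mutant libraries, with no overlap. The log2 fold change was -0.54 ± 0.073 (SE, adjusted p = 0.00246, edgeR). Prkg2, the other cGMP-dependent kinase, was at 0.081 CPM in mutant library 3 and had no count in the other libraries.

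The phosphodiesterases moved in opposite directions. Pde5a (ENSMUSG00000053965, chr3:122728947-122859374, plus strand), which is selective for cGMP, was at 83.4, 82.7 and 79.9 CPM in control libraries and at 58.1, 59.9 and 62.1 CPM in mutant libraries. All 3 mutant libraries were lower than all 3 control libraries, with a log2 fold change of -0.45 ± 0.041 (SE, adjusted p = 0.000384, edgeR). Pde5a overlaps the antisense gene 4930447N08Rik over 55 exonic bases. Pde2a (ENSMUSG00000110195, chr7:101421691-101512827, plus strand), which degrades both cyclic nucleotides, was at 254.6, 255.0 and 276.7 CPM in control libraries and at 419.2, 395.2 and 419.7 CPM in mutant libraries. It rose 1.57-fold with no overlap, a log2 fold change of 0.65 ± 0.045 (SE, adjusted p = 0.000106, edgeR). Pde2a shares 3955 exonic bases with Gm45837 on the same strand, so counting can split reads between them. With the counts of both summed, an alternative chosen after seeing the data, the log2 fold change was 0.63 (adjusted p = 3.92e-05, edgeR).

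Levels between genes were compared as CPM per kilobase of exon. In control libraries Pde2a was highest at 42.6, followed by Npr1 at 21.5, Gucy1b1 at 19.4, Gucy1a1 at 15.8, Pde5a at 8.34, Npr2 at 3.90, Npr3 at 3.16, Prkg1 at 1.86 and Nppc at 0.393. No neighbours in this order overlapped over the 3 libraries. In mutant libraries Pde2a was at 66.9, Gucy1b1 at 19.6, Npr1 at 17.04, Gucy1a1 at 12.7, Pde5a at 6.11, Npr2 at 3.82, Prkg1 at 1.28, Npr3 at 1.09 and Nppc at 0.146, again with no overlap between neighbours. Gucy1b1 thus stood above Npr1, and Prkg1 above Npr3, the reverse of the control order. With the length of the longest transcript in place of all exons the order was the same, but Gucy1b1 and Gucy1a1 overlapped in control libraries and Npr1 and Gucy1a1 in mutant libraries.

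The 3 genes whose profile over the 6 libraries was most like that of Npr3 were Lama1, Rnasek and Cdkn2b, by the distance between centred log2 CPM profiles (0.152, 0.178 and 0.182). Lama1, a laminin chain of basement membranes, fell from 159.8 ± 4.98 to 56.9 ± 3.08 CPM (SD, n = 3 each; log2 fold change -1.49). Rnasek fell from 27.8 to 10.2 CPM and Cdkn2b, a cyclin-dependent kinase inhibitor, from 25.7 to 9.59 CPM. Lama1 is also on the fibroblast marker list used below. For Nppc, with its few counts, the nearest genes were AC090881.3, Slc26a11 and Map3k8. Their log2 fold changes were -0.64, -0.38 and -0.51, against -1.42 for Nppc. The 0.5 CPM added before taking logs exceeds the mean of Nppc in both groups (0.409 CPM in control, 0.152 CPM in mutant libraries). It flattens the Nppc profile, so this likeness carries little information.

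Markers of other cell types were read in the same libraries, and their summed level was lower for smooth muscle and fibroblasts and higher for pericytes. Of 10 smooth muscle markers 7 were called lower and 1 (Sncg) higher, and their summed level was 438 to 470 CPM in control libraries and 226 to 258 CPM in mutant libraries. The defining markers Acta2, Myh11 and Tagln fell by 1.32, 1.02 and 1.17 on the log2 scale. Of 10 fibroblast markers 4 were called lower and none higher, with sums of 1047 to 1175 CPM in control and 643 to 842 CPM in mutant libraries. Their median log2 fold change was -0.46. Of their defining markers Col1a2 and Col3a1 were called lower and Col1a1 was not called (adjusted p = 0.373, edgeR). Of 11 pericyte markers 5 were called higher and 2 lower (4155 to 4274 CPM in control, 4410 to 4539 CPM in mutant libraries), with a median of 0.09. Of 12 endothelial markers 4 were called higher and 3 lower, with sums of 14822 to 15264 and 14131 to 15425 CPM. None of these 4 lists had a defining marker at 0. Outside the vessel wall, 6 of 8 microglia markers and 5 of 6 erythroid markers were called lower and none higher. Microglia markers summed to 1288 to 1321 CPM in control and 1023 to 1057 CPM in mutant libraries, and erythroid markers to 6971 to 7177 and 4663 to 4958 CPM. Of 8 astrocyte markers 1 (Aqp4) was called lower and none higher, with sums of 478 to 525 CPM in control and 262 to 390 CPM in mutant libraries and a median of -0.29. The low end of the mutant sums rests in part on Gja1 in 1 library. Gja1 was at 79.2 CPM in mutant library 2 and at 200.6 and 197.6 CPM in mutant libraries 1 and 3. Of 7 markers of the oligodendrocyte lineage 2 were called higher and 1 lower. The part of these cells in the lower Npr3, Npr1, Prkg1 and Pde5a was not tested. Neuron markers, given here because neurons also express Pde2a, summed to 176 to 193 CPM in control and 177 to 206 CPM in mutant libraries. Of these 9 markers 0 were called higher and 1 lower, but 7 had a log2 fold change above 0 and 2 below, with a median of 0.17. Stmn2, the marker called lower, and Tubb3 made up most of the sum. The part of neuron RNA in the higher Pde2a was not tested.

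**Figure D3:**
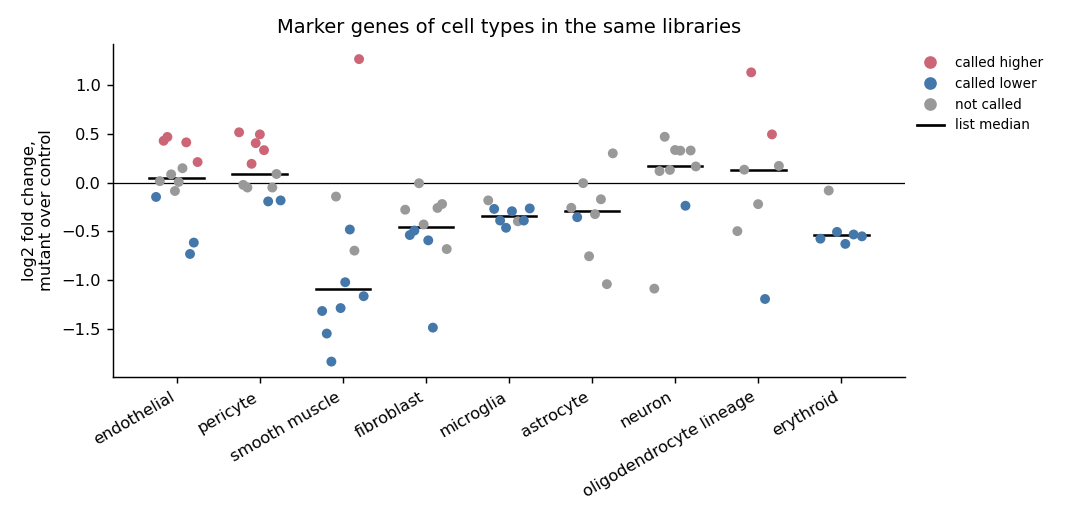
Log2 fold change, mutant against control, of each tested marker gene of 9 cell types, coloured by call, with a bar at the median of each list. Most smooth muscle markers lie below 0, with a median of -1.10, whereas endothelial markers have a median of 0.05.

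The rest of the cGMP pathway was described with a list of 68 further genes, of which 52 were tested. Of these, 12 were called higher, 4 lower and 36 were not called, so 30.8% were called against 14.4% of all genes tested. The median log2 fold change was 0.09. Among the 12, Pde6b and Cnga1 had 0 counts in every control library and Pde6g had 0, 0 and 4. These genes passed the filter through the mutant libraries and could only be called higher. The list was also chosen with earlier results of these data known, so its share called is a description and not a test. By role, the called genes were 4 of 10 for nitric oxide synthesis and its control, 3 of 10 phosphodiesterases, 3 of 7 channels, 4 of 15 substrates and targets, 1 of 4 for ligands and their processing, 1 of 4 for guanylyl cyclases and their activators and 0 of 2 for export.

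The nitric oxide genes split by direction. Nos3, the endothelial nitric oxide synthase, was at 551.0, 558.5 and 535.3 CPM in control libraries and at 408.7, 403.4 and 442.1 CPM in mutant libraries. It fell by 0.39 ± 0.043 on the log2 scale (SE, adjusted p = 0.000852, edgeR), and its exons overlap those of the antisense genes Atg9b and Gm15587. Nos1, the neuronal form, fell from 9.17 ± 0.594 to 5.37 ± 0.511 CPM (SD, n = 3 each; adjusted p from edgeR 0.00319), and also has an antisense partner, Gm26995. Nos2, the inducible form, rose from 71.0 ± 2.88 to 112 ± 3.25 CPM (log2 fold change 0.66, adjusted p from edgeR 8.72e-05). Nostrin, which binds the endothelial enzyme and moves it away from the cell membrane, rose from 88.8 ± 2.73 to 138 ± 6.35 CPM (log2 fold change 0.64, adjusted p from edgeR 0.000119). Control and mutant libraries did not overlap for any of these 4 genes.

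Downstream, 4 genes rose by small amounts. Vasp, an actin regulator that the kinase phosphorylates, rose by 0.22 ± 0.030 on the log2 scale, from 264 to 308 CPM (adjusted p from edgeR 0.00249). Rgs4, a regulator of G protein signalling, rose by 0.26, Itpr1, a calcium release channel, by 0.28 and Hspb6, a small heat shock protein, by 0.45 (adjusted p from edgeR 0.00217, 0.00909 and 0.0115). Itpr1 and Hspb6 share exonic bases with antisense genes, as do Furin and Pde3a, named next. Hspb6 also shares some with Gm38670 on the same strand. Of the other genes, Furin, a protease that processes peptide precursors, rose by 0.19 and Hcn2, a cyclic nucleotide-gated pacemaker channel, fell by 0.46 (adjusted p from edgeR 0.00768 and 0.00265). Pde3a, a phosphodiesterase that cGMP inhibits, fell from 32.6 to 25.4 CPM (log2 fold change -0.36, adjusted p from edgeR 0.0137). That call was lost without control library 1 (0.0582) and without mutant library 2 (0.0513).

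**Figure D4:**
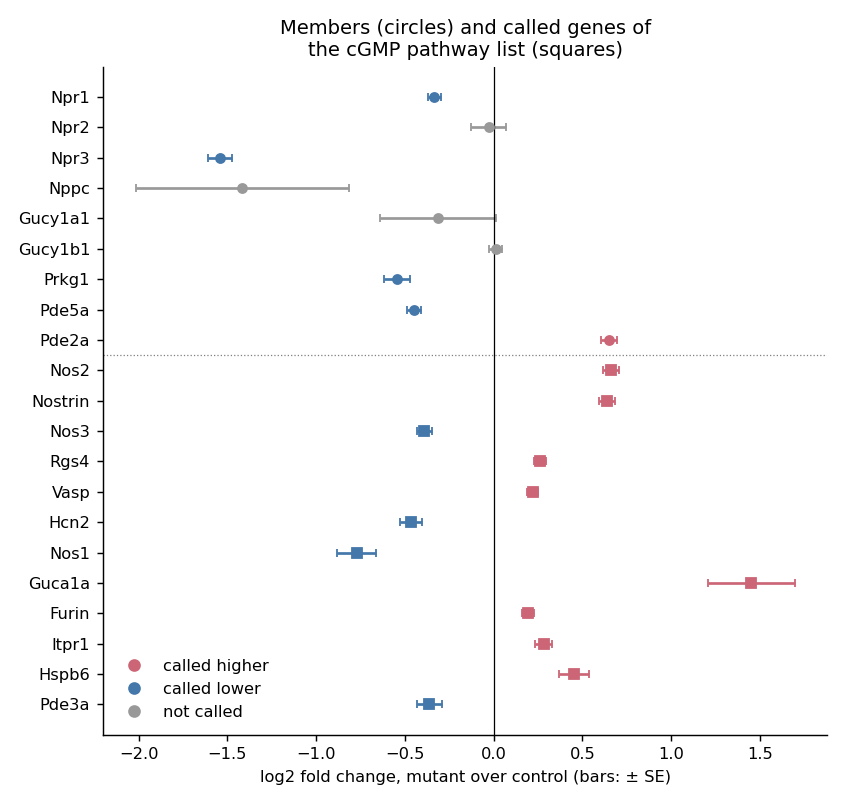
Log2 fold change with its SE, mutant against control, of the 9 genes and of the called genes of the wider cGMP list, leaving out Pde6b, Pde6g, Cnga1 and Cnga2, which were near 0 in control libraries. Npr3 lies lowest at -1.54, and Pde2a lies at 0.65.

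Some genes of photoreceptor cGMP signalling were at or near 0 in control libraries and present in mutant libraries. Pde6b, a subunit of the rod phosphodiesterase, had 0 counts in every control library and 88, 96 and 69 counts in mutant libraries, which is at least 7.28-fold higher against a floor of 12 counts per library (adjusted p from edgeR 0.000739). Cnga1, the rod channel, had 0 counts in every control library and 23, 19 and 19 in mutant libraries (at least 1.76-fold higher, adjusted p from edgeR 0.0132). Guca1a, an activator of the photoreceptor cyclase, rose from 0.428 to 1.17 CPM (adjusted p from edgeR 0.00701). Pde6g, another rod phosphodiesterase subunit, is named after its values were seen, and had 0, 0 and 4 counts in control libraries and 55, 55 and 23 in mutant libraries (adjusted p from edgeR 0.0157). Cnga2, the channel of olfactory neurons, rose from 0.181 to 0.799 CPM (adjusted p from edgeR 0.0149). The call of Cnga1 was lost without mutant library 1 (0.0609), 2 (0.0548) or 3 (0.0549), that of Cnga2 was lost with control library 2 (0.0531) or mutant library 1 (0.067) left out. Pde6g lost its call when control library 1 (0.0507), control library 2 (0.0505), mutant library 1 (0.0584) or mutant library 2 (0.062) was left out.

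Other photoreceptor genes of the cGMP list were not called. Cngb1, the other rod channel subunit, was at 6.70, 7.35 and 6.95 CPM in control libraries and at 5.84, 5.12 and 6.13 CPM in mutant libraries, lower with no overlap but not called (adjusted p from edgeR 0.125). The photoreceptor cyclase Gucy2e was not called (0.114 to 0.415 CPM in control, 0.322 to 0.608 CPM in mutant libraries, adjusted p from edgeR 0.291), and Gucy2f, with 0, 8 and 4 counts in control and 0, 0 and 12 in mutant libraries, was too low to test, as were Pde6a, Pde6c, Pde6h, Guca1b, Cnga3 and Cngb3.

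Further photoreceptor genes were read with a marker list chosen after seeing the data. Of its 9 genes 8 were tested, 6 were called higher and none lower, and their summed level was 6.80 to 9.26 CPM in control libraries and 16.96 to 19.6 CPM in mutant libraries. Rom1 aside, the tested genes were near 0 in control libraries (Pdc had 0, 0 and 12 counts) and passed the filter through the mutant libraries. A call of lower was hardly possible for them, so the tally carries no information on direction. Nrl, a rod transcription factor, was at 0.152, 0.0856 and 0.0855 CPM in control libraries and at 2.52, 1.24 and 2.05 CPM in mutant libraries (adjusted p from edgeR 0.000488). Rom1, a disc membrane protein, made up most of the control sum, at 6.60 to 8.47 CPM in control and 6.18 to 7.25 CPM in mutant libraries. Of 3 pineal markers none was tested, with sums of 0.171 CPM or less. The part of photoreceptor RNA in the higher Pde6b, Pde6g, Cnga1 and Guca1a was not tested.

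**Figure D5:**
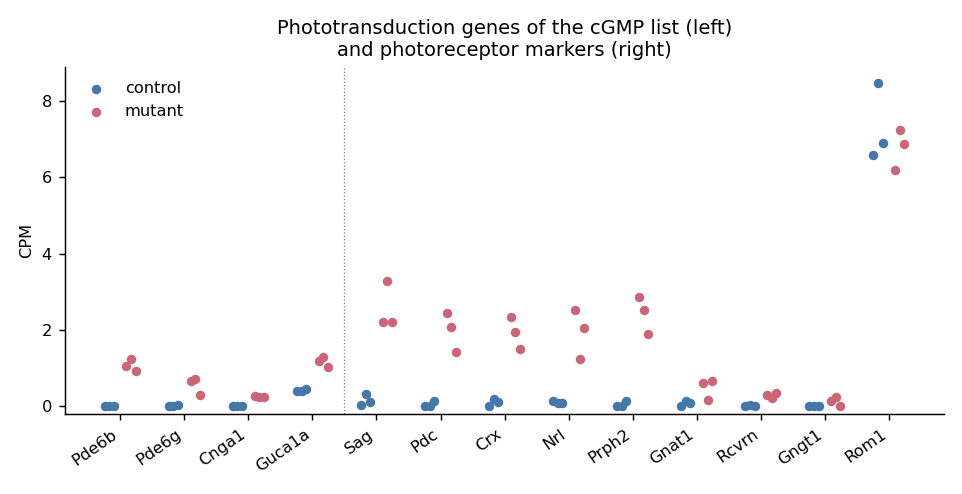
CPM in each library of 4 phototransduction genes of the cGMP list (left of the dotted line) and of 9 photoreceptor markers (right). Control points lie near 0 for all but Guca1a and Rom1, and Nrl reaches 1.24 to 2.52 CPM in mutant libraries.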

How the data were processed

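Poly(A) RNA-seq of 6 libraries, 3 control and 3 mutant, was read from a gene table of estimated counts that the authors deposited as whole numbers, not normalized, so rounding changed nothing and the edgeR test chosen for raw counts was kept. Per the submitters' processing notes, edgeR, StringTie 1.3.4, HISAT2, cutadapt 1.10 and FastQC 0.10.1 were used, with build GRCm39. Their settings, and whether counting used the strand, are not given in the sources used here. The gene identifiers match GENCODE M21, so symbols and coordinates are those of GRCm38. The deposited quality table gives the count of valid reads, 50226902 to 53986268 per library.

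Genes were kept with filterByExpr, scaled by TMM (factors 0.978 to 1.009) and tested with the robust quasi-likelihood F test of edgeR 4.0.16 (R 4.3.3), in a model of group alone. Benjamini-Hochberg adjustment covered all 19549 genes. The SE is the size of the log2 fold change over the square root of F. The test was also run on simulated independent counts, which lacked the steps of about 4 counts per read pair and any shared pools. That run cannot show how the test behaves with those features. Levels between genes were divided by the union of exons. Alternatives were other scalings and filters, DESeq2 1.42.0, limma-voom 3.58.1, counts divided by 4, a replicate block, and each library left out.

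The 9 genes, the pathway list and the marker lists were chosen with earlier results of these data known. All 9 genes are named. Of the pathway list, called genes are named, up to 15 by smallest adjusted p. The genes most like Npr3 and Nppc are the 3 with the smallest distance between log2 profiles (pseudocount 0.5 CPM), among tested genes with a mean of at least 5 CPM. Promoter sequences are from RefSeq, with windows for 9 of 9 genes. Proteins were not analysed here, and some items are not reported here.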

Additional observations from a re-analysis of the deposited data

How the results depend on the processing

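The 5 calls among the 9 genes were the same under all 15 alternatives, with Npr3 between -1.57 and -1.50 and Pde2a between 0.63 and 0.69 on the log2 scale. Of the 16 called pathway genes 12 kept their call in every alternative that gave them a value, and 13 to 17 were called in all. Over all genes the number called ran from 1907 to 3494, against 2812, and those called lower dropped from 1335 to 807, 861 and 865 when control library 1, control library 2 or mutant library 2 was omitted. The sign turned for 2 genes that were not called: leaving out 1 library gave Npr2 between -0.10 and 0.062 (0.062 without control library 1, 0.03 without mutant library 3) and Gucy1b1 between -0.0069 and 0.041 (-0.0069 without mutant library 1). Gucy1a1 moved from -0.31 to -0.03 without mutant library 3. The log2 subunit ratio differed by -0.61 to -0.036 when 1 library was left out. The difference in Npr3 share was -6.27 to -5.94 percentage points when 1 library was left out and -6.86 with the longest transcript.

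Deviations from the group mean correlated at -0.024, 0.056 and 0.025 between same-numbered control and mutant libraries (14993 genes). Between differently numbered libraries the correlations ran from -0.062 to 0.041. On the second principal component (17.3% of the variance) control libraries 1 to 3 were at -5.81, 27.4 and -19.6. Mutant libraries 1 to 3 were at 5.89, 11.3 and -19.1. These values cannot decide whether same-numbered libraries share a batch or pool. With a replicate block 5 of the 9 genes, 14 pathway genes and 2059 genes in all were called, and the calls of Cnga1 (adjusted p 0.0925) and Pde6g (0.0743) were lost.

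Nppc was not tested with a minimum of 1 CPM in 3 libraries or with counts divided by 4. Depth limits Nppc, Pde6b, Pde6g, Cnga1 and Cnga2, which rest on few read pairs, and the share of Npr3 cannot reach a p under 0.1 with 3 libraries a group.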

Other observations

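Single libraries also stood apart from their group in other genes of the pathway list. Ppp1r12a, the regulatory subunit of myosin phosphatase, is named after its values were seen. It was at 76.6, 79.1 and 76.5 CPM in control libraries, at 45.4 and 44.5 CPM in mutant libraries 1 and 2, and at 82.8 CPM in mutant library 3. It was not called (adjusted p = 0.423, edgeR), and without mutant library 3 it was called lower (log2 fold change -0.78, adjusted p = 0.000143, edgeR). Gucy1a1 showed the opposite pattern, with mutant library 3 low and mutant libraries 1 and 2 within the control range. Cav1, caveolin 1, which binds the endothelial nitric oxide synthase, was at 101.1, 42.4 and 87.2 CPM in control libraries, so a wide spread within a group was not limited to the mutant libraries. Pde6d was at 13.0 CPM in mutant library 2 and at 34.5 and 32.6 CPM in mutant libraries 1 and 3. Creb1 was at 24.9 CPM in control library 1 and at 62.6 and 68.7 CPM in control libraries 2 and 3.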
